A study of Saccharomyces cerevisiae with 14 samples.

Results

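The comparison set RNA captured after 5 min of labelling with 4-thiouracil (4tU) against RNA captured after 2.5 min in the same 3 timecourses of growing budding yeast (Saccharomyces cerevisiae). It rested on 6 of the 14 samples of the series, 3 libraries at each time, chosen by their labelling time and paired by timecourse number. All 6 came from strain W303U, a MATa haploid carrying the alleles ade2-1 and his3-11, 15, then trp 1-1, and further leu2-3, 112 and can1-100. Cultures of 600 ml were shaken at 30 °C in SD medium without uracil and leucine to an OD600 of 0.8. They received 500 µM 4tU for the stated time and were frozen in cold methanol. Thiolated RNA was biotinylated from 2 mg of total RNA, bound to streptavidin beads and sequenced as randomly primed libraries. The other samples were 3 libraries at 1.5 min, which entered the fits to estimate the spread, 3 of total RNA depleted of rRNA and 2 taken through the capture without label. Nothing in the labels beyond the timecourse number says whether the timecourses were separate cultures, so p-values measure the spread between these libraries.

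4tU is a uracil analogue that yeast takes up and builds into RNA, so a short pulse marks transcripts made during that pulse. As labelling goes on, newly made precursor RNA is processed within the labelled pool. Introns are removed by the spliceosome, which joins the 5′ splice site, the branch point and the 3′ splice site, and unstable noncoding transcripts are degraded by the nuclear exosome or by cytoplasmic decay, while stable RNAs such as small nucleolar RNAs (snoRNAs) accumulate.

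Total counts were 9596800, 12599524 and 18891399 at 2.5 min and 7206103, 20528678 and 20371687 at 5 min, for timecourses 1, 2 and 3. rRNA took between 4.88% and 21.8% of the counts in these 6 libraries and 51.2% and 55.4% without label. The a-specific receptor gene STE2 stood at 265 to 358 CPM (counts scaled to a common library size by TMM) over the 6 libraries, the alpha-specific agglutinin gene SAG1 at 20.9 to 33.9 CPM and the alpha-specific receptor gene STE3 at 6.24 to 23.2 CPM, an order that goes with the MATa label. FUI1, a uridine permease gene, stood at 2855 to 5251 CPM.

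Over all annotated features, 47 were higher and 88 lower at 5 min than at 2.5 min. Of the higher ones 32 were protein-coding genes, a class that holds 6400 of the 11403 features tested, and they included chaperone genes and genes of mitochondrial respiration and translation. A further 4 were snoRNAs, of 77 tested. Of the lower ones 61 were unannotated or antisense transcripts, from classes of 1794, 814, 1634 and 402 features tested, and 25 were protein-coding genes. edgeR's quasi-likelihood test with the timecourse as a block called them among 11403 features tested, which is 0.412% higher and 0.772% lower (1.18% in either direction, adjusted p between 0.0374 and 0.0476). At an unadjusted p under 0.05 there were 1069 higher and 1196 lower. Of the 47 higher features, 43 were higher in 3 of 3 timecourses, against 24.2% of all features, and in 29 every 5 min library lay above every 2.5 min library, against 5.74% of all features. Of the 88 lower features, 86 were lower in 3 of 3 timecourses, against 23.8% of all features, and in 70 every 5 min library lay below every 2.5 min library, against 7.28%. The calls and these counts come from the same values, so the counts describe the calls and do not test them. The log2 fold changes ran from 0.67 to 4.70 among the higher features (median 0.92) and from −2.95 to −0.67 among the lower ones (median −0.95). All folds are relative to the bulk of features, and in bulk RNA fewer cells with a transcript and less of it per cell cannot be told apart. No feature passed when the timecourse was left out of the fit, and none passed without timecourse 2 or without timecourse 3. Without timecourse 1, 41 passed, 14 higher and 27 lower. Scaled by library size only, the median over all features moved from 0.00 to −0.16 (log2), and the calls were 31 higher and 453 lower.

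Heat shock chaperone genes were the list with the most calls among the higher features. Of 36 measured, 5 were higher and 0 lower, beside 0.412% and 0.772% of all features. In 3 of 3 timecourses 28 (77.8%) were higher, beside 24.2% of all features. The median log2 fold change of the chaperone genes was 0.45, beside 0.00 over all features tested. HSP82, an Hsp90 chaperone (YPL240C, R64 chromosome XVI, 96496 to 98625), stood at 583, 228 and 184 CPM at 2.5 min and at 850, 431 and 388 CPM at 5 min in timecourses 1, 2 and 3. Timecourse 1 was high at both times, so the groups overlapped while each timecourse moved upward, with a log2 fold change of 0.84 ± 0.17 (SE, edgeR adjusted p = 0.0441). HSP104, which pulls proteins out of aggregates (YLL026W, chromosome XII, 88623 to 91349), was at 371, 135 and 115 CPM and then at 704, 296 and 307 CPM. Its log2 fold change was 1.14 ± 0.23 (adjusted p = 0.0459), again with timecourse 1 the highest at both times. HSP42, a small heat shock protein gene, rose by 0.95 ± 0.18 on the log2 scale, STI1, an Hsp90 co-chaperone gene, by 0.86 ± 0.16, and BTN2, which sorts misfolded proteins, by 1.08 ± 0.22 (adjusted p = 0.0403, 0.0403 and 0.046). In timecourse 1 these genes were also the highest at 2.5 min, with HSP42 at 147 CPM against 60.0 and 52.3 in timecourses 2 and 3 and BTN2 at 123 CPM against 27.8 and 47.8. HSP104 and BTN2 are named to complete the 5 calls, after their values were seen. General stress genes had 0 of 40 members called in either direction, with a median of 0.07. HOR7, which responds to hyperosmotic stress, went from 502, 354 and 501 CPM to 843, 470 and 764 CPM without passing (log2 fold change 0.59 ± 0.16, adjusted p = 0.0824).

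Nuclear genes of mitochondrial respiration and of the mitochondrial ribosome were mostly higher at 5 min. Over all features 0.412% were called higher and 0.772% lower, and 24.2% were higher and 23.8% lower in 3 of 3 timecourses. Oxidative phosphorylation genes had 2 of 39 members higher and 0 lower, 33 higher in 3 of 3 timecourses and a median log2 fold change of 0.35, with medians of 0.29, 0.35 and 0.41 in timecourses 1, 2 and 3. Mitochondrial ribosomal protein (RP) genes had 2 of 69 higher and 0 lower, 47 higher and 0 lower in 3 of 3 timecourses, and a median of 0.36. CYC7, an isoform of cytochrome c (YEL039C, chromosome V, 79636 to 79977), stood at 10.4, 11.0 and 15.5 CPM at 2.5 min and at 32.9, 29.1 and 36.0 CPM at 5 min. All 3 libraries at 5 min lay well above all 3 at 2.5 min, and the log2 fold change was 1.42 ± 0.25 (adjusted p = 0.0403). ATP19, a small subunit of the mitochondrial ATP synthase (YOL077W-A, chromosome XV, 185438 to 185644), was at 57.9, 54.4 and 54.4 CPM and then at 112, 88.9 and 104 CPM. Its groups did not overlap, and its log2 fold change was 0.87 ± 0.14 (adjusted p = 0.0403). RSM27, a protein of the small mitochondrial ribosomal subunit, went from 24.9, 45.4 and 28.2 CPM to 43.4, 69.5 and 53.1 CPM (0.77 ± 0.15, adjusted p = 0.0403). MRPL32, of the large subunit, went from 27.6, 34.1 and 28.8 CPM to 52.3, 53.5 and 47.6 CPM (0.76 ± 0.16, adjusted p = 0.0466). The groups of RSM27 overlapped and those of MRPL32 did not. Cytoplasmic RP genes had 0 of 137 members higher and 1 lower, with a median of 0.12 that was −0.05 when scaled by library size only. Ribosome biogenesis genes had 0 of 105 called in either direction (median 0.12), and RRP14, from that list, was at 1.05 ± 0.27 without passing (adjusted p = 0.0739).

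**Figure D1:**
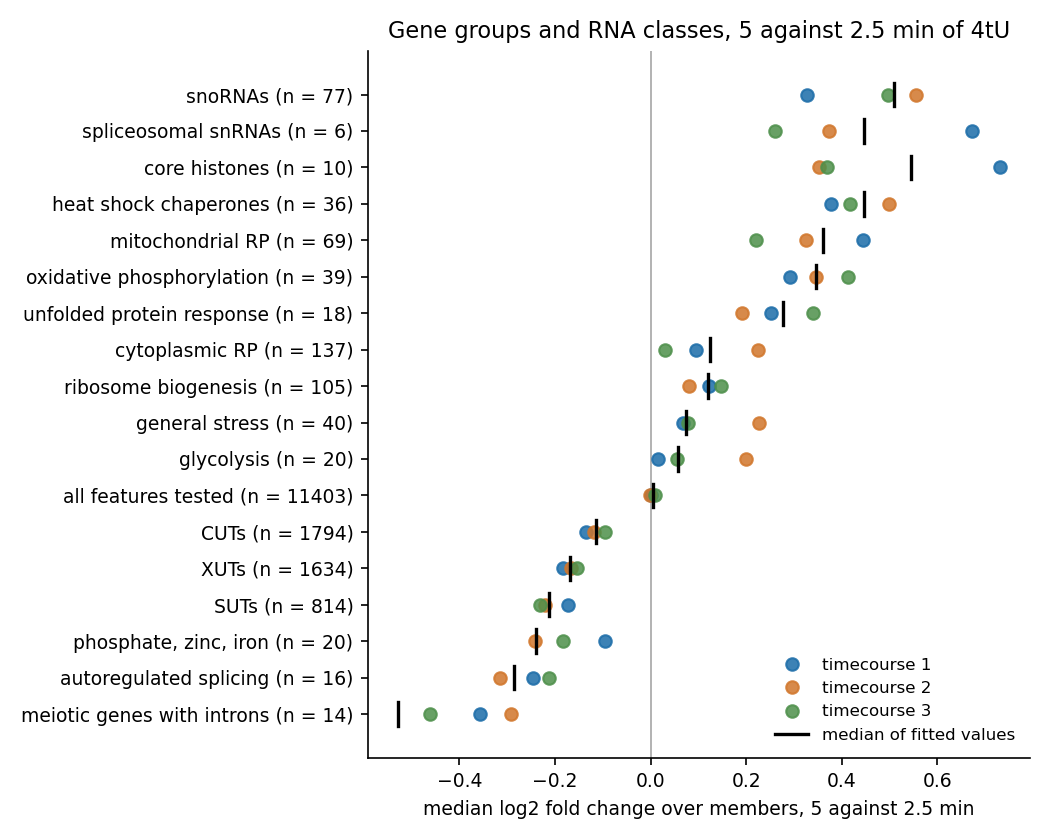
Median log2 fold change at 5 against 2.5 min over the members of gene groups and RNA classes (horizontal axis), per timecourse (points) and over the values fitted across timecourses (black bars), with the number of members tested. snoRNAs, snRNAs, core histones, chaperones, oxidative phosphorylation and mitochondrial RP genes lie above 0 in all 3 timecourses, and CUTs, XUTs, SUTs and meiotic genes with introns below 0, while all features tested sit at 0.00. These medians carry no test.

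snoRNAs and snRNAs took a larger part of the captured RNA at 5 min, whereas tRNAs did so in 1 of 3 timecourses (0.623%, 3.00% and 3.37% of the counts outside rRNA, then 0.587%, 2.82% and 4.59%), as did rRNA as a share of all counts. snoRNAs, which guide chemical modification and cleavage of rRNA, took 11.5%, 11.1% and 12.8% of the counts outside rRNA at 2.5 min and 13.8%, 13.9% and 14.9% at 5 min. The share was higher in 3 of 3 timecourses, by 2.41 ± 0.39 percentage points (SD of the 3 differences; exact two-sided sign-flip test, p = 0.25, the smallest 3 pairs allow). In the libraries without label the snoRNA share was 23.9% and 16.9%, above every labelled library of these times; the part of unlabelled RNA in the difference was not tested. Of 77 snoRNAs, 4 were higher and 0 lower, beside 0.412% and 0.772% of all features. In 3 of 3 timecourses 50 were higher and 0 lower, beside 24.2% and 23.8% of all features. The median log2 fold change of the snoRNAs was 0.51. The 4 called snoRNAs are box H/ACA RNAs, which guide the change of uridine to pseudouridine. snR43 stood at 1134, 614 and 647 CPM at 2.5 min and at 2083, 1158 and 1150 CPM at 5 min, with no overlap between the times although timecourse 1 was the highest at both (log2 fold change 0.87 ± 0.15, adjusted p = 0.0403). snR44, which lies in an intron of RPS22B, went from 57.5, 39.9 and 99.1 CPM to 88.6, 86.0 and 169 CPM (0.83 ± 0.14, adjusted p = 0.0403). snR31 and snR36, named to complete the calls after their values were seen, had log2 fold changes of 0.75 ± 0.14 and 0.86 ± 0.16 (both adjusted p = 0.0403). snR17a, a copy of the U3 RNA needed to cleave pre-rRNA, stood at 25878, 29410 and 22261 CPM and then at 31525, 36864 and 21583 CPM. It moved in different directions in the timecourses and did not pass (0.19 ± 0.23, adjusted p = 0.692), and snR30, a second RNA of pre-rRNA cleavage, had 0.39 ± 0.20 (adjusted p = 0.306).

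Of all features, 1.18% passed in either direction. Of 6 spliceosomal snRNAs 0 were called and 5 were higher in 3 of 3 timecourses, beside 24.2% of all features. The median log2 fold change of the snRNAs was 0.45. Their share of the counts outside rRNA was 2.62%, 2.88% and 2.24% at 2.5 min and 3.31%, 3.03% and 2.47% at 5 min. snR7-L, the long form of the U5 snRNA, went from 434, 405 and 838 CPM to 691, 631 and 1075 CPM without passing (0.56 ± 0.17, adjusted p = 0.106). It shares its sequence with the short form, so its reads are uncertain. SCR1, the RNA scaffold of the signal recognition particle, went from 37435, 19002 and 15504 CPM to 51163, 39941 and 17597 CPM and did not pass (0.59 ± 0.27, adjusted p = 0.246). None of the 10 core histone genes passed (0 called), but 9 were higher and 0 lower in 3 of 3 timecourses, beside 24.2% and 23.8% of all features. The median of the histone genes was 0.55, and 0.73, 0.35 and 0.37 by timecourse. HHT1, a histone H3 gene, was at 243, 431 and 428 CPM and then at 448, 615 and 561 CPM, and its groups did not overlap (0.60 ± 0.16, adjusted p = 0.0778). HTB2, a histone H2B gene, had 0.55 ± 0.15 (adjusted p = 0.0812). Genes of the unfolded protein response had 0 of 18 members called and a median of 0.28. HAC1, the transcription factor gene of that response, whose mRNA is cut by Ire1, stood at 613, 547 and 401 CPM and then at 905, 843 and 419 CPM (0.41 ± 0.18, adjusted p = 0.237). IRE1 itself had 0.70 ± 0.21 (adjusted p = 0.103) and INO1, an inositol synthesis gene, −0.46 ± 0.15 (adjusted p = 0.114).

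Several single genes outside these lists were among the higher features of smallest p, a choice that favours little scatter between timecourses. MPS1, a kinase of the spindle checkpoint (YDL028C, chromosome IV, 400997 to 403291), stood at 15.1, 15.9 and 14.9 CPM at 2.5 min and at 32.2, 30.4 and 38.0 CPM at 5 min. CYR1, the adenylate cyclase gene (YJL005W, chromosome X, 425157 to 431237), was at 46.6, 47.4 and 56.4 CPM and then at 86.2, 83.6 and 97.1 CPM. COY1, a Golgi membrane protein gene, went from 15.1, 17.5 and 24.6 CPM to 25.9, 36.7 and 57.8 CPM. None of these 3 genes overlapped between the times, with log2 fold changes of 1.13 ± 0.19, 0.83 ± 0.14 and 1.04 ± 0.17 (each adjusted p = 0.0403). Without label, scaled over all libraries together, MPS1 stood at 4.39 and 38.5 CPM and CYR1 at 33.4 and 40.5 CPM. There COY1 stood at 9.65 and 38.7 CPM. The part of unlabelled RNA in these 3 calls was not tested. TMA10, a protein found with ribosomes, went from 19.2, 8.33 and 12.6 CPM to 41.9, 23.0 and 36.0 CPM, again without overlap, at 1.36 ± 0.22 (adjusted p = 0.0403). YNL122C had a log2 fold change of 1.04 ± 0.18 and YPL225W of 0.88 ± 0.15 (both adjusted p = 0.0403), and the groups of YPL225W overlapped. The cytoplasmic and mitochondrial RP lists were drawn by gene name, so a gene known here only by its locus name could not enter them. Of all features, 1.18% passed in either direction. Glycolysis genes had 0 of 20 members called (median 0.06), with HXK1, a hexokinase gene, at 0.80 ± 0.29 (adjusted p = 0.154). Splicing and RNA decay genes had 0 of 50 called (median 0.17), with PRP40, a protein of the U1 snRNP, at 0.73 ± 0.21 (adjusted p = 0.0918). ACT1, the actin gene, stood at 1615, 1098 and 1301 CPM and then at 1504, 1101 and 1307 CPM, a log2 fold change of −0.03 ± 0.16 (adjusted p = 0.937).

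**Figure D2:**
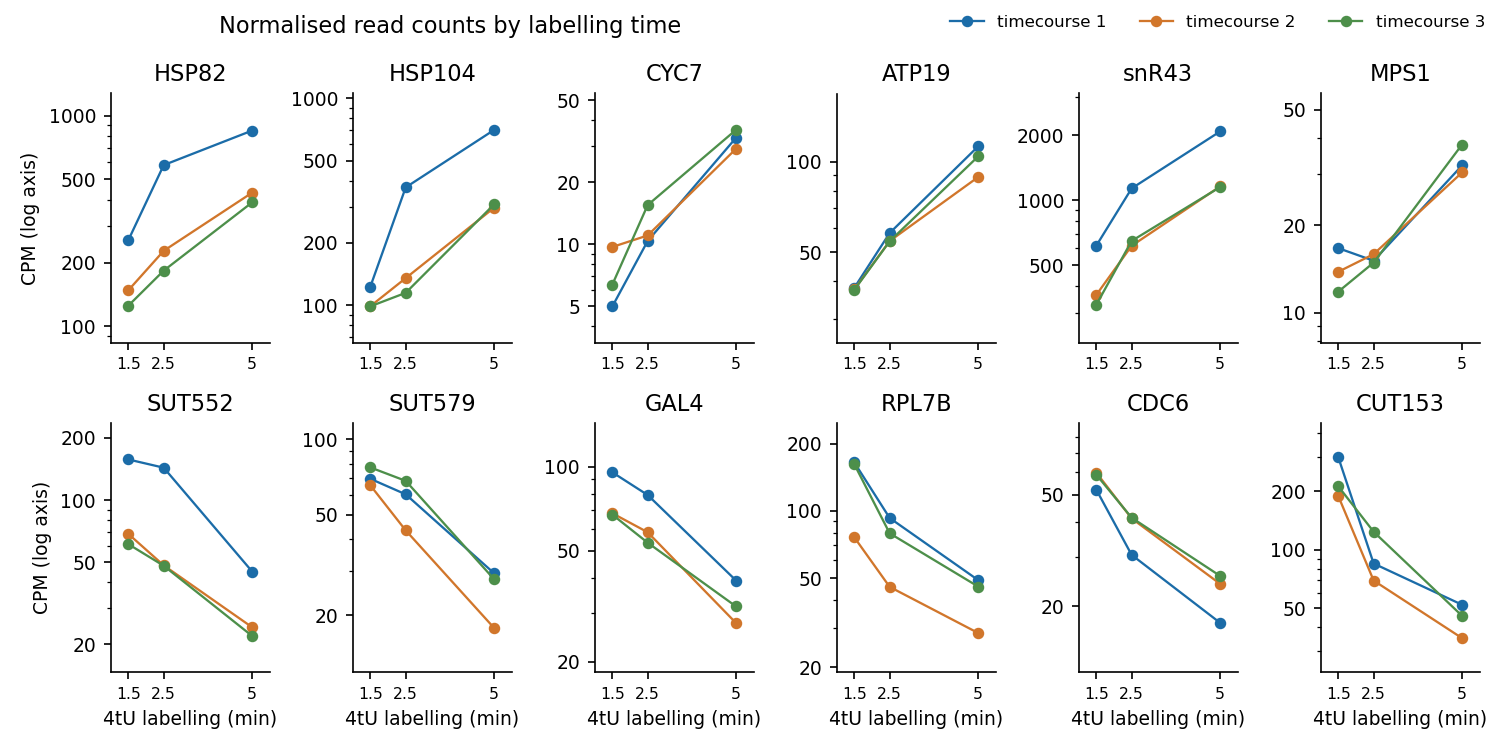
Normalised read counts (CPM, log axis) of 12 features that passed the test, against labelling time in minutes, with one line per timecourse. The upper row holds features that were higher at 5 than at 2.5 min (HSP82, HSP104, CYC7, ATP19, snR43 and MPS1) and the lower row features that were lower (SUT552, SUT579, GAL4, RPL7B, CDC6 and CUT153). Each timecourse moves the same way between 2.5 and 5 min, and timecourse 1 starts high for HSP82, HSP104, snR43 and SUT552.

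Unannotated and antisense transcripts held 61 of the 88 lower features, and their classes hold 1794, 814, 1634 and 402 of the 11403 features tested. The unannotated ones are named by how they were found: SUTs are stable unannotated transcripts, XUTs build up without the cytoplasmic exonuclease Xrn1, and CUTs are cryptic unstable transcripts seen when the nuclear exosome is impaired. SUTs had 19 of 814 members lower and 1 higher, with 309 lower and 84 higher in 3 of 3 timecourses and a median log2 fold change of −0.21. XUTs had 27 of 1634 lower and 1 higher (562 and 194 in 3 of 3, median −0.17). CUTs had 4 of 1794 lower and 2 higher (523 and 253 in 3 of 3, median −0.11), a smaller share of lower calls than the 0.772% over all features. Antisense features had 11 of 402 lower and 2 higher (130 and 91 in 3 of 3, median −0.06). Over all features tested, 0.772% were called lower and 0.412% higher. In 3 of 3 timecourses 23.8% of all features were lower and 24.2% higher. SUTs took 3.81%, 3.44% and 3.92% of the counts outside rRNA at 2.5 min and 2.99%, 2.61% and 2.98% at 5 min, a difference of −0.86 ± 0.07 percentage points. XUTs took 6.24%, 5.70% and 6.25% and then 4.98%, 4.59% and 5.14%, a difference of −1.16 ± 0.09, and for both classes no 5 min library reached the lowest 2.5 min library. CUTs took 4.37%, 4.62% and 5.15% and then 4.04%, 4.37% and 4.78%, which overlapped between the times but was lower in 3 of 3 timecourses, by −0.32 ± 0.06. Protein-coding genes took 60.3%, 61.3% and 59.1% and then 59.8%, 58.9% and 58.3%, also lower in 3 of 3 timecourses, by −1.26 ± 0.99. Each of these exact sign-flip tests gave p = 0.25, the smallest that 3 pairs allow. As a share of all counts, protein-coding genes were higher in 2 of 3 timecourses (53.4%, 58.3% and 46.2%, then 54.2%, 55.5% and 46.4%). Counted by gene, 2058 of 6400 protein-coding genes were higher and 1177 lower in 3 of 3 timecourses. Their median log2 fold change was 0.07, and 0.09, 0.07 and 0.08 in timecourses 1, 2 and 3. Without label the SUT share was 1.29% and 3.21% and the XUT share 2.29% and 4.59%.

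**Figure D3:**
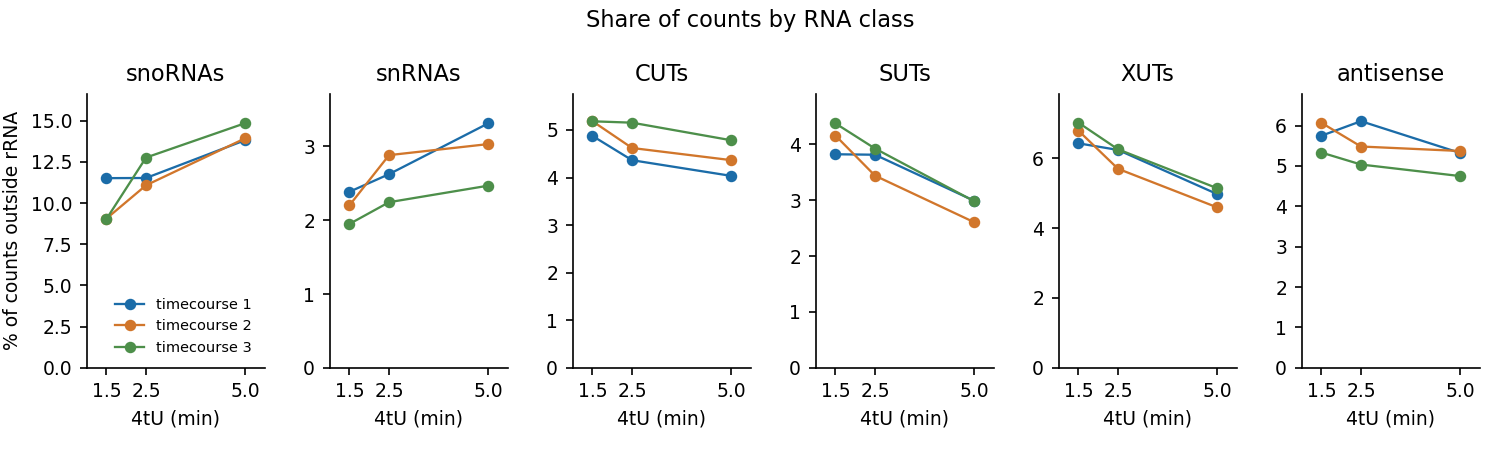
Share of each library's counts outside rRNA (per cent, axis from 0) held by 6 RNA classes against labelling time in minutes, with one line per timecourse. Between 2.5 and 5 min the snoRNA and snRNA shares are higher and the CUT, SUT, XUT and antisense shares lower in all 3 timecourses. SUTs lie at 3.44% to 3.92% at 2.5 min and at 2.61% to 2.99% at 5 min.

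SUT552 had the smallest p of all lower features. It stood at 143, 48.3 and 48.1 CPM at 2.5 min and at 45.1, 24.2 and 22.0 CPM at 5 min, with timecourse 1 high at both times and no overlap between them (log2 fold change −1.26 ± 0.16, adjusted p = 0.0374). SUT579 was at 60.4, 43.4 and 68.3 CPM and then at 29.3, 17.8 and 27.8 CPM (−1.21 ± 0.17, adjusted p = 0.0374). Without label, scaled over all libraries together, SUT579 stood at 11.6 and 126 CPM and SUT552 at 11.3 and 5.08 CPM. The part of unlabelled RNA in these calls was not tested. XUT_8R-98 had the same log2 fold change as SUT579, and its CPM differed from that of SUT579 by at most 2.97% in any of the 9 labelled libraries. Such pairs were common: 51 of the 88 lower features had at least 1 partner among them whose CPM differed by at most 20% in every labelled library. Joined through shared partners they form 19 groups, whose outer members can differ by more. Among the 47 higher features this held for 1 pair, SUT646 and XUT_10R-249 (0.78 ± 0.15 and 0.79 ± 0.15). Whether reads were counted by strand is not given in these sources, so reads of features that overlap on either strand cannot be told apart.

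Other lower features of this kind were also named for a small p, which favours even changes between timecourses. SUT157 went from 33.9, 24.8 and 28.5 CPM to 13.7, 10.8 and 13.3 CPM (−1.20 ± 0.18, adjusted p = 0.0374). The antisense feature Unit360 went from 109, 87.0 and 86.2 CPM to 59.3, 39.0 and 42.3 CPM (−1.02 ± 0.15, adjusted p = 0.0374). XUT_8F-92, within 15% of SUT579, had −1.11 ± 0.17 (adjusted p = 0.0374). None of these 3 overlapped between the times. CUT153 went from 85.1, 69.5 and 124 CPM to 52.2, 35.1 and 45.8 CPM (−1.07 ± 0.19, adjusted p = 0.0403), while CUT411 was higher, from 9.85, 18.1 and 16.5 CPM to 24.3, 34.8 and 31.5 CPM (1.05 ± 0.18, adjusted p = 0.0403). Neither CUT overlapped between the times. Without label, scaled over all libraries together, SUT157 stood at 4.61 and 13.3 CPM and Unit360 at 9.76 and 106 CPM. There XUT_8F-92 stood at 8.66 and 52.5 CPM, CUT153 at 9.76 and 14.4 CPM and CUT411 at 6.14 and 42.4 CPM. The part of unlabelled RNA in these calls was not tested. CUT744 stood at 28.9, 48.4 and 25.4 CPM and then at 20.7, 27.6 and 27.8 CPM, moved in different directions and did not pass (−0.37 ± 0.24, adjusted p = 0.41).

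Several of the lower protein-coding genes shared their profile with an unannotated transcript. GAL4, the activator of the galactose genes (YPL248C, chromosome XVI, 79711 to 82356), stood at 79.1, 58.2 and 53.4 CPM at 2.5 min and at 39.1, 27.5 and 31.6 CPM at 5 min. Its groups did not overlap (−0.95 ± 0.14, adjusted p = 0.0374), and its CPM lay within 5.7% of that of XUT_16F-30 in every labelled library. YKR011C (chromosome XI, 461635 to 462696) went from 91.6, 78.0 and 99.1 CPM to 51.5, 41.3 and 48.8 CPM (−0.93 ± 0.14, adjusted p = 0.0374). It shared this profile within 18.5% with Unit235, SUT237 and XUT_11F-207, whose log2 fold changes were −1.04 ± 0.14, −0.97 ± 0.14 and −0.94 ± 0.14 (each adjusted p = 0.0374). The genes FBP1 (fructose-1,6-bisphosphatase of gluconeogenesis), NDT80 (a meiotic transcription factor) and MER1 (a meiotic splicing factor) were lower at −0.98 ± 0.19, −0.95 ± 0.20 and −0.87 ± 0.16 (adjusted p = 0.0441, 0.0476 and 0.0403). FBP1 lay within 4.64% of SUT281, NDT80 within 5.29% of XUT_8R-174 and MER1 within 4.97% of SUT746. ADH2, an alcohol dehydrogenase gene repressed by glucose, went from 9.85, 12.2 and 15.5 CPM to 5.05, 5.30 and 5.89 CPM without overlap (−1.20 ± 0.22, adjusted p = 0.0403). These 4 genes were named after their values were seen. Without label, scaled over all libraries together, ADH2 stood at 34.2 and 14.6 CPM and GAL4 at 22.9 and 34.6 CPM. There YKR011C stood at 14.3 and 33.9 CPM and FBP1 at 12.2 and 30.5 CPM. NDT80 stood there at 24.9 and 15.7 CPM and MER1 at 4.17 and 4.60 CPM. The part of unlabelled RNA in these calls was not tested.

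Other protein-coding genes fell with no called partner of like profile. The list counts that follow stand beside 1.18% of all features called in either direction. CDC6, needed to load the replicative helicase (YJL194W, chromosome X, 69338 to 70879), was the 1 gene of 34 in the cell cycle list that passed. It stood at 30.5, 41.1 and 41.4 CPM and then at 17.5, 24.1 and 25.7 CPM, without overlap (−0.75 ± 0.15, adjusted p = 0.0466). CLN3, a G1 cyclin gene, had −0.67 ± 0.19 (adjusted p = 0.0897). RPL7B, a gene for ribosomal protein L7 that carries a snoRNA in an intron (YPL198W, chromosome XVI, 173152 to 174702), was the 1 cytoplasmic RP gene and the 1 of 9 snoRNA host genes that passed. It went from 92.9, 45.7 and 79.4 CPM to 49.0, 28.4 and 45.9 CPM (−0.80 ± 0.14, adjusted p = 0.0403). Its groups overlapped through the low timecourse 2, and RPL7A is a near-identical copy with which it can share reads. PHO5, a phosphatase gene repressed by phosphate, did not pass at −0.85 ± 0.18 (adjusted p = 0.0511), and the phosphate, zinc and iron list had 0 of 20 members called (median −0.24). Pyrimidine genes had 0 of 22 called (median −0.01), with CDD1, a cytidine deaminase gene, at −0.60 ± 0.17 (adjusted p = 0.0825).

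Genes whose splicing is regulated or inefficient in growing cells were mostly lower, but none passed. Over all features 1.18% passed in either direction, and 23.8% were lower and 24.2% higher in 3 of 3 timecourses. Genes with autoregulated splicing had 0 of 16 members called, 8 lower and 1 higher in 3 of 3 timecourses and a median log2 fold change of −0.29. RPS14B, a gene for ribosomal protein S14 whose protein acts on its own splicing, stood at 1631, 2039 and 2380 CPM at 2.5 min and at 1605, 856 and 1337 CPM at 5 min. Timecourse 1 hardly moved, the groups did not overlap, and the log2 fold change of −0.70 ± 0.27 did not pass (adjusted p = 0.185), beside 0.15 ± 0.16 for its paralog RPS14A (adjusted p = 0.647). DBP2, an RNA helicase gene, went from 107, 197 and 118 CPM to 52.2, 88.5 and 96.9 CPM (−0.80 ± 0.28, adjusted p = 0.144). YRA1, an mRNA export gene, had −0.33 ± 0.15, RPL30 −0.28 ± 0.26 and RPL22B −0.61 ± 0.20 (adjusted p = 0.256, 0.584 and 0.13). Meiotic genes with introns had 0 of 14 called, 7 lower and 1 higher in 3 of 3 timecourses and a median of −0.53. SPO1, a phospholipase gene of sporulation, went from 27.5, 24.9 and 30.7 CPM to 17.8, 16.0 and 18.1 CPM (−0.68 ± 0.16, adjusted p = 0.0656). REC102, a gene of meiotic recombination, went from 30.0, 23.5 and 33.5 CPM to 18.6, 15.5 and 22.0 CPM (−0.63 ± 0.16, adjusted p = 0.0683). Neither overlapped between the times. The remaining lists had 0 members called: translation elongation (11 measured, median 0.03), daughter cell separation (13, 0.18), ergosterol synthesis (26, 0.07), early termination (16, −0.05), nitrogen and amino acid genes (36, 0.01), a-specific genes (6, 0.10), alpha-specific genes (4, −0.61) and genes of the genotype and medium (6, −0.25). RPL28 and RPL29, both genes of the large ribosomal subunit, had −0.59 ± 0.17 and 0.52 ± 0.14 without passing (adjusted p = 0.0936 and 0.0799).

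Among the called features, the largest fold changes in both directions belonged to short RNAs with like copies or with libraries at 0. The mitochondrial tRNA tH(GUG)Q stood at 0, 69.9 and 96.8 CPM at 2.5 min and at 0, 173 and 291 CPM at 5 min, and tF(GAA)Q at 0, 673 and 1947 CPM and then at 0, 1506 and 7004 CPM. Both were at 0 in both libraries of timecourse 1, so their calls (1.46 ± 0.22 and 1.53 ± 0.28, adjusted p = 0.0403 and 0.0444) rest on timecourses 2 and 3. SUP19, a serine tRNA, was at 0, 498 and 1.12 CPM and then at 0, 50.9 and 0.436 CPM, so its log2 fold change of −2.92 ± 0.39 (adjusted p = 0.0374) is carried by timecourse 2. tS(AGA)M had −2.95 ± 0.43 (adjusted p = 0.0403) from 0, 24.3 and 12.7 CPM to 0, 3.67 and 1.31 CPM. Over the 45 features of the mitochondrial genome, 3 were higher and 0 lower, beside 0.412% and 0.772% of all features. In 3 of 3 timecourses 9 (20%) were higher and 0 lower, beside 24.2% and 23.8% of all features. Their median log2 fold change was 0.49, and 0.00, 0.19 and 0.66 in timecourses 1, 2 and 3. The 3 calls were tH(GUG)Q, tF(GAA)Q and tS(UGA)Q2 (1.31 ± 0.27, adjusted p = 0.0455), the last named after its values were seen. tS(UGA)Q2 was at 0.321 and then 0.315 CPM in timecourse 1, so its call too rests on timecourses 2 and 3. Without label, scaled over all libraries together, tH(GUG)Q stood at 3302 and 447 CPM and tF(GAA)Q at 9626 and 4492 CPM. There tS(UGA)Q2 stood at 300 and 211 CPM. The part of unlabelled RNA in these 3 calls was not tested. RDN5-6, a copy of the 5S rRNA gene, had 4.70 ± 0.91 (adjusted p = 0.0403) with 0.428, 0.139 and 2.98 CPM at 2.5 min and 0.158, 17.9 and 79.4 CPM at 5 min. RUF5-2, an RNA with a near-identical copy, went from 10.2, 3.06 and 35.3 CPM to 24.8, 7.73 and 58.0 CPM (1.09 ± 0.20, adjusted p = 0.0403). The sources do not say how reads that match several places were counted, so these RNAs are uncertain.

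The preceding step from 1.5 to 2.5 min, fitted with the same libraries, called 88 features higher (0.772%) and 51 lower (0.447%), and the whole span from 1.5 to 5 min called 1709 higher (15%) and 1570 lower (13.8%). These steps share libraries with the 5 against 2.5 min comparison. The 2 steps differ in length, and no comparison between them here adjusts for that. The features below were named for a small p between 2.5 and 5 min, which favours a larger later step. Side by side, MPS1 had 0.13 in the preceding step and 1.13 between 2.5 and 5 min, CYR1 0.14 and 0.83, SUT552 −0.32 and −1.26 and GAL4 −0.28 and −0.95, whereas snR43 had 0.87 in both. A test of the difference between the steps called 0 features higher and 2 lower (0.0175%), and these were SUP19 and tS(AGA)M (edgeR adjusted p = 0.00368 for both). That test had no call for MPS1, CYR1, SUT552 or GAL4, so a difference between their steps was not shown.

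Most introns had a lower unspliced fraction at 5 min than at 2.5 min. The authors' ratio per intron, read as the spliced fraction, was turned into an unspliced fraction for 187 introns, 86 in RP genes and 101 in other genes. The median unspliced fraction over introns was 0.452, 0.310 and 0.462 at 2.5 min and 0.265, 0.176 and 0.259 at 5 min in timecourses 1, 2 and 3. Every 5 min library lay below every 2.5 min library, with a mean difference of −0.175 ± 0.036 (SD of the 3 differences; exact two-sided sign-flip test, p = 0.25, the smallest 3 pairs allow). RP introns were the more spliced set at both times, with medians of 0.160, 0.142 and 0.212 and then 0.081, 0.062 and 0.118. Other introns had 0.739, 0.542 and 0.759 and then 0.537, 0.363 and 0.510. The drop in absolute terms was 0.084 for RP introns and 0.210 for the others, while the median ratio of the fraction at 5 min to that at 2.5 min was 0.521 and 0.748. Whether the 2 sets differ was not tested.

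limma called 15 introns (8.02%) with a lower unspliced fraction at 5 min and 0 with a higher one; at an unadjusted p under 0.05 there were 58 lower and 1 higher. The unspliced fraction was lower in 3 of 3 timecourses for 128 introns (68.4%) and higher in 3 of 3 for 1 (0.535%), and for 57 introns (30.5%) every 5 min library lay below every 2.5 min library. Of the RP introns 8 of 86 passed and 73 were lower in 3 of 3 timecourses, and of the others 7 of 101 passed and 55 were lower in 3 of 3. No intron passed without the timecourse block, and between 0 and 3 passed when a library or a timecourse was left out.

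**Figure D4:**
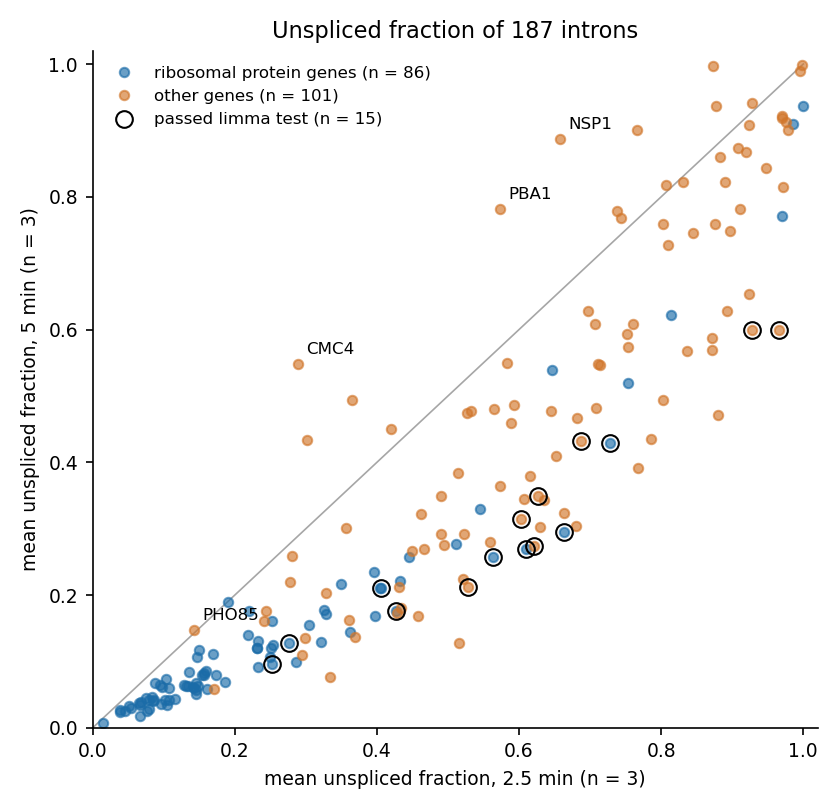
Mean unspliced fraction of each of 187 introns at 5 min (vertical axis) against 2.5 min (horizontal axis), n = 3 libraries each, with RP introns in blue, other introns in orange and the 15 that passed the limma test ringed. The grey diagonal marks equal fractions. Most points lie below it, RP introns gather at low fractions, and CMC4, PBA1 and NSP1 lie above it.

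The splice-site sequences below belong to the intron with the smallest p, to an RP intron with the usual sites, to the 1 called intron with another 5′ splice site, and to 3 introns whose mean unspliced fraction was higher at 5 min without passing the test. They come from the deposited feature table and were each placed once on the R64 genome, between coding exons. Capitals mark the first 6 bases of the intron, the 7 bases of the branch point motif, and the last 3 bases of the intron; lower case before and after is flanking sequence.
TMA20 5′ splice site: agaaGTATGTct
TMA20 branch point: atTACTAACat
TMA20 3′ splice site: aacatcatcatcgaTAGattc
RPL14B 5′ splice site: gaagGTATGTtg
RPL14B branch point: ttTACTAACaa
RPL14B 3′ splice site: cgttataattactaTAGgttt
RPL16A 5′ splice site: gatgGTACGTaa
RPL16A branch point: aaTACTAACaa
RPL16A 3′ splice site: taataatcttcaacCAGgtaa
CMC4 5′ splice site: caagGTTTGTaa
CMC4 branch point: ttCACTAACgt
CMC4 3′ splice site: tttcacattaatttTAGattg
PBA1 5′ splice site: gcttGTATGTta
PBA1 branch point: ttGACTAACtt
PBA1 3′ splice site: cttgattctttttgAAGttta
CIN2 5′ splice site: aaggGTATGTtg
CIN2 branch point: ctAATTAACat
CIN2 3′ splice site: actatttttttgtgTAGagct

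The called introns all carried the branch point TACTAAC, and 14 of the 15 began with GTATGT. Over the 186 introns with a single entry in the feature table, TACTAAC was found in 162 (87.1%) and GTATGT in 146 (78.5%), both read on the strand of the gene. The exception among the called introns was RPL16A, with GTACGT. The 24 introns with another branch point had 0 calls, beside 8.02% of all introns. Of these 24, 13 were lower in 3 of 3 timecourses, against 114 of the 162 with TACTAAC and 68.4% of all introns. The median difference in unspliced fraction was −0.143 for the 24 and −0.099 for the 162. Whether the 2 sets differ was not tested. The median unspliced fraction of the 24 was 0.831, 0.545 and 0.760 at 2.5 min and 0.560, 0.371 and 0.578 at 5 min. For the 162 it was 0.397, 0.295 and 0.402 and then 0.220, 0.155 and 0.244. Called introns were 91 to 447 bases long (median 209), within the range of all introns (58 to 1002, median 268.5). Across all 186 introns the difference in unspliced fraction had a Spearman rho of 0.19 with intron length, −0.04 with the authors' 5′ splice site score and 0.08 with their branch point score. The introns share their libraries, and RP introns are both longer and more spliced. Within RP introns rho with length was 0.11, and within other introns −0.04.

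TMA20, a gene for a protein found with ribosomes (YER007C-A), holds an intron of 103 bases at R64 chromosome V, 166772 to 166874. Its unspliced fraction was 0.679, 0.548 and 0.357 at 2.5 min and 0.359, 0.228 and 0.051 at 5 min in timecourses 1, 2 and 3. The timecourses kept their order and each dropped by a like amount, so the groups touched only through timecourse 3 at 2.5 min and timecourse 1 at 5 min. The difference was −0.315 ± 0.033 (SE, limma adjusted p = 0.0267). Between 38 and 302 reads stood behind each of these values, fewer than for any other called intron. The authors' 95% interval was given as 0.286, 0.378 and 0.347 at 2.5 min and 0.39, 0.176 and 0.101 at 5 min. limma did not use these intervals.

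Among the RP introns that passed were those of RPL14B, RPL2B, RPL31B, RPS18A, RPL2A, RPS0B and RPL16A. RPL14B (chromosome VIII, 104406 to 104803) had an unspliced fraction of 0.486, 0.388 and 0.408 at 2.5 min and of 0.288, 0.148 and 0.092 at 5 min (−0.251 ± 0.033, adjusted p = 0.0294). RPL31B (chromosome XII, 931350 to 931698) had 0.818, 0.597 and 0.573 and then 0.446, 0.229 and 0.212 (−0.367 ± 0.053, adjusted p = 0.0319). In both, every 5 min library lay below every 2.5 min library. The RPL2 pair, which encodes 1 protein of the large subunit from near-identical genes, moved together. RPL2B (chromosome IX, 316772 to 317171) went from 0.778, 0.376 and 0.676 to 0.318, 0.137 and 0.353, and RPL2A (chromosome VI, 221268 to 221414) from 0.798, 0.467 and 0.918 to 0.400, 0.262 and 0.626. In both genes timecourse 2 was the most spliced at each time, and the differences were −0.341 ± 0.045 and −0.298 ± 0.057 (adjusted p = 0.0294 and 0.0416). RPS18A (chromosome IV, 1359970 to 1360404) had the most even values, from 0.286, 0.245 and 0.299 to 0.112, 0.120 and 0.153, a difference of −0.148 ± 0.025 (adjusted p = 0.0388). RPS0B had −0.156 ± 0.031 and RPL16A −0.307 ± 0.062 (adjusted p = 0.0418 and 0.0427). Reads of RP paralogs can be shared where exons match, which makes these values less certain.

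The other introns that passed were in TMA20, YOP1, PFY1, EPT1, MRPL44, SEC17 and SAR1. YOP1, a membrane protein gene that shapes tubules of the endoplasmic reticulum (chromosome XVI, 623578 to 623710), was almost unspliced at 2.5 min at 0.944, 0.964 and 0.874 and stood at 0.500, 0.740 and 0.559 at 5 min (−0.328 ± 0.052, adjusted p = 0.0363). PFY1, the profilin gene (chromosome XV, 552666 to 552874), had 0.942, 0.968 and 0.988 and then 0.600, 0.743 and 0.453 (−0.367 ± 0.063, adjusted p = 0.0388). In both, all 5 min libraries lay below all 2.5 min libraries. Their preceding step from 1.5 to 2.5 min was −0.026 for YOP1 and 0.004 for PFY1. SAR1, the GTPase gene of COPII vesicles, had a difference of −0.254 ± 0.050, and SEC17, a gene of membrane fusion, of −0.288 ± 0.055 (adjusted p = 0.0418 and 0.0416). EPT1, a phospholipid synthesis gene, had −0.277 ± 0.051 and MRPL44, of the large mitochondrial ribosomal subunit, −0.348 ± 0.066 (both adjusted p = 0.0416). ACT1 (chromosome VI, 54378 to 54686) had an unspliced fraction of 0.751, 0.681 and 0.610 and then of 0.280, 0.215 and 0.416, with no overlap. Its difference of −0.377 ± 0.084 was larger than that of any called intron and did not pass (adjusted p = 0.0588).

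**Figure D5:**
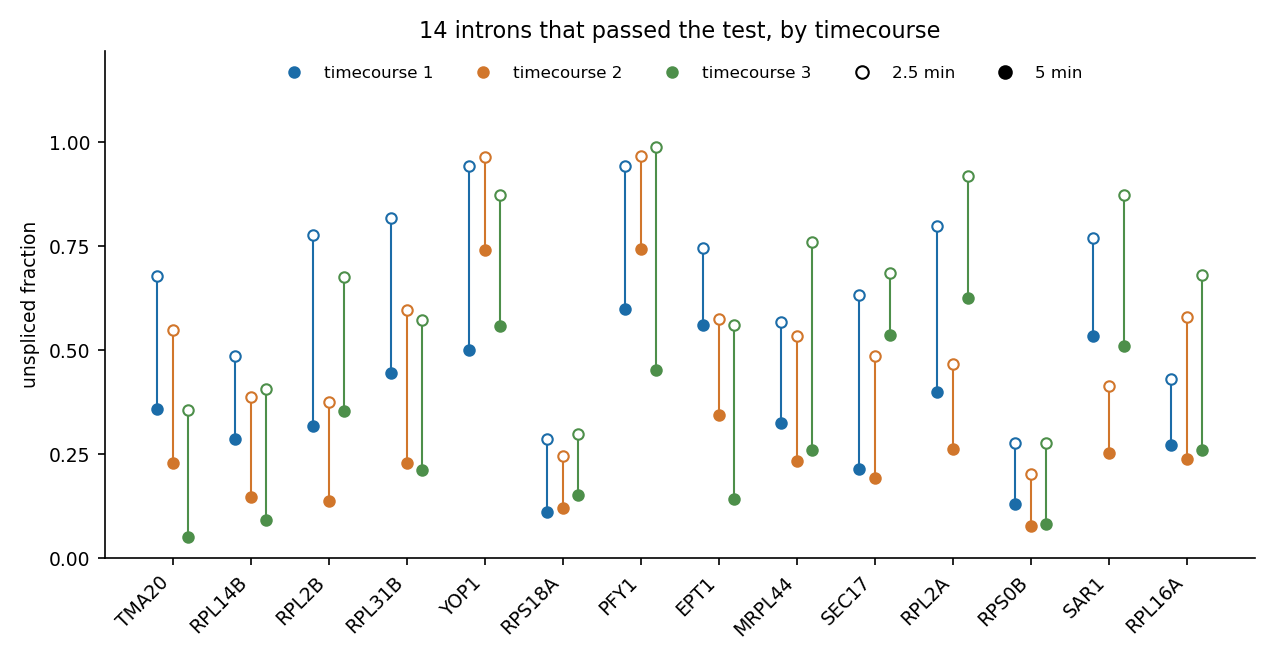
Unspliced fraction (vertical axis, 0 to 1) of 14 of the 15 introns that passed the limma test, at 2.5 min (open circles) and 5 min (filled circles), joined within each timecourse by a line in that timecourse's colour. All lines shown go down; RPS18A has the most even lines, and TMA20 keeps the same order of timecourses at both times.

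CMC4, a gene of the mitochondrial intermembrane space (YMR194C-B, chromosome XIII, 652776 to 652847), was the 1 intron whose unspliced fraction was higher in 3 of 3 timecourses. It had 0.311, 0.170 and 0.387 at 2.5 min and 0.537, 0.276 and 0.831 at 5 min. The groups overlapped because timecourse 2 was low at both times, and the difference of 0.259 ± 0.084 did not pass (adjusted p = 0.13). It was 0.166, 0.100 and 0.214 at 1.5 min, so each timecourse was ordered by labelling time. Its 5′ splice site GTTTGT and branch point CACTAAC both differ from the usual ones. PHO85, a cyclin-dependent kinase gene, was low at both times, with 0.149, 0.151 and 0.129 and then 0.149, 0.156 and 0.135 (0.004 ± 0.022, adjusted p = 0.9). PBA1, a proteasome assembly gene, had 0.987, 0.473 and 0.259 and then 0.973, 0.630 and 0.741. CIN2, a gene of tubulin folding, had 0.530, 0.490 and 0.075 and then 0.505, 0.774 and 0.204. Neither passed (0.208 ± 0.128 and 0.129 ± 0.123, adjusted p = 0.262 and 0.433). Without the 5 min library of timecourse 3 the difference of PBA1 was 0.046, and without that of timecourse 2 the difference of CIN2 was 0.029. NSP1, a nuclear pore gene, had 0.985, 0.903 and 0.084 and then 0.864, 0.858 and 0.938, and NMD2, a gene of nonsense-mediated decay, 0.998, 0.998 and 0.622 and then 0.997, 0.998 and 0.995. Their differences of 0.229 ± 0.215 and 0.124 ± 0.090 come from 1 low library, timecourse 3 at 2.5 min, and did not pass (adjusted p = 0.432 and 0.329). Without timecourse 3 they were −0.083 and −0.001.

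Counts over the whole gene were also compared for the genes with an intron ratio. Of the 186 genes with an intron ratio that are in the feature table, 0 passed in either direction in the test on counts, beside 1.18% of all features, 57 were higher in 3 of 3 timecourses (30.6%, beside 24.2% of all features) and 26 lower in 3 of 3 (beside 23.8%), and the median log2 fold change was 0.10, or −0.07 when scaled by library size only.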

How the data were processed

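The deposited table of read counts per annotated feature held 12549 rows; 100 repeated rows were removed and 11403 of the remaining 12449 features passed a minimum count of 10 (edgeR filterByExpr). Per the submitters' processing notes, STAR 2.4.2a and build R64 were used; the counting tool is not stated. The library barcodes held 6 random bases, per the labels. Splicing came from the authors' deposited fraction of spliced transcripts per intron with the read counts behind it (at least 37 in the 6 libraries); how that fraction was estimated is not stated. Splice-site motif scores and intron lengths were used as the authors deposited them. The 14 RPKM columns were not used.

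Counts of the 9 labelled libraries were fitted with edgeR 4.0.16 (R 4.3.3; TMM, quasi-likelihood test, timecourse as block, 4 residual degrees of freedom, prior count 2 for log2 values per library), and unspliced fractions with limma 3.58.1 with the same block. Both used Benjamini-Hochberg adjustment over all features at 0.05 and were tested on simulated data. The SE of each edgeR log2 fold change is its absolute value divided by the square root of the F statistic. It restates that test and is not a separate measure of spread. DESeq2 1.42.0 was an alternative. The titles give the timecourse shared by libraries of one number, and libraries of 1 timecourse deviated together (correlation 0.619 to 0.882 for counts, against −0.674 to 0.110 between timecourses; 0.217 to 0.524 for introns, against −0.337 to 0.0904), so the block was kept. Deviations were taken from the mean of each labelling time, so positive values within timecourses force those between timecourses below 0 on balance. The range between timecourses is therefore no separate evidence for the block. Whether PCR copies were removed is not stated, so the precision that these depths give covers counting error only. Genes were named by this rule: up to 12 called features per direction by smallest p, then for each list and class the 2 members of smallest p per direction at a mean of 5 CPM or more, up to 12 introns per direction by smallest p, and a list of genes always named. Introns beyond these, and genes marked so, were named after their values were seen, to complete the calls. The members and the 23 lists were chosen with earlier results of these data known. Sequences are from the deposited intron table, placed on RefSeq's R64 genome. Alternatives tried were other scalings, filters, tests, libraries in the fit, intron scales, no block, and leaving out each library and timecourse. The values of 1 called intron are not reported here.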

Additional observations from a re-analysis of the deposited data

How the results depend on the processing

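The direction of the called features was steady and their number was not. Of the 135 called features, 134 or 135 kept their direction under each alternative. The alternatives reuse most or all of the libraries behind the calls, so this describes the calls and does not test them. Fits with the replicate block on the 6 libraries alone called 655 (309 higher, 346 lower), which include all 135. DESeq2 with the block called 770 (356 and 414; its adjusted p was not given for 1769), sharing 134. Library size only called 484 (31 and 453), sharing 119. With no replicate block 0 passed (0 higher, 0 lower) in edgeR, with 335 higher and 515 lower at an unadjusted p under 0.05. The 6 libraries without the block gave 0 (268 and 405 unadjusted), and adding total RNA gave 0 (152 and 125 unadjusted). Leaving out a library or timecourse left 0 to 41 calls, 0 to 14 higher and 0 to 27 lower. Introns called, all lower, numbered 2 on the 6 libraries, 5 on the arcsine scale, and 0 with a trended prior or without the block (67 and 31 lower at an unadjusted p under 0.05; limma), 22 on the logit scale, which hold 9 of the 15, and 0 to 3 after leaving out a library or timecourse. The cause was not tested.

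Under library size only, where the median of all features was −0.16, list medians became −0.051 for ribosome biogenesis, −0.11 for glycolysis, −0.13 for translation elongation, 0.18 for oxidative phosphorylation, 0.28 for chaperones, −0.091 for general stress, −0.11 for the cell cycle, 0.010 for daughter cell separation, −0.18 for pyrimidine genes, −0.10 for ergosterol synthesis and 0.11 for the unfolded protein response. They were 0.0018 for splicing and decay, −0.21 for early termination, −0.70 for meiotic genes with introns, −0.46 for autoregulated splicing, −0.14 for snoRNA hosts, −0.16 for nitrogen and amino acid genes, −0.41 for phosphate, zinc and iron, −0.066 for a-specific genes, −0.41 for genes of the genotype and medium, −0.045 for cytoplasmic RP and 0.19 for mitochondrial RP genes. By class they were −0.29 for CUTs, −0.38 for SUTs, −0.34 for XUTs, −0.22 for antisense features, −0.095 for protein-coding genes, 0.34 for snoRNAs and −0.073 for genes with an intron ratio, and RPS14A turned to −0.021. Pseudogenes had −0.42, but −0.16 and −0.14 on the 6 libraries with and without the block. As shares of all counts the differences were −0.725 percentage points for SUTs, −0.968 for XUTs and −0.238 for CUTs. For protein-coding genes the mean difference was −0.649, with 2 of 3 timecourses higher.

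With a library or timecourse left out, list medians ranged from 0.014 to 0.24 for ribosome biogenesis, −0.028 to 0.078 for elongation, 0.32 to 0.48 for chaperones, −0.0093 to 0.26 for general stress, 0.14 to 0.23 for daughter cell separation, −0.047 to 0.092 for pyrimidine genes, 0.088 to 0.21 for splicing and decay, −0.15 to −0.0026 for termination, −0.58 to −0.29 for meiotic genes, −0.36 to −0.17 for autoregulated splicing, −0.084 to 0.036 for snoRNA hosts, −0.31 to −0.14 for phosphate, zinc and iron and 0.018 to 0.18 for cytoplasmic RP genes. The ranges were −0.16 to −0.10 for CUTs, −0.24 to −0.18 for SUTs, −0.20 to −0.16 for XUTs, −0.10 to −0.028 for antisense, 0.068 to 0.087 for protein-coding, −0.42 to 0.54 for rRNA, −0.0064 to 0.47 for tRNA and 0.0061 to 0.14 for genes with an intron ratio. ACT1 ranged from −0.096 to 0.017. Median intron differences ranged from −0.224 to −0.146 over all, −0.0996 to −0.0638 for RP and −0.279 to −0.157 for other introns. Single introns ranged from −0.00067 to 0.187 for NMD2, −0.083 to 0.405 for NSP1 and −0.0028 to 0.0084 for PHO85.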
